A study of Mus musculus with 54 samples.

Results

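Kidney and heart of the same kind of old mouse were compared at baseline, without the drug that the rest of the study was about. The comparison used the 5 kidney libraries and the 6 heart libraries of vehicle-treated mice, 11 of the 54 RNA-seq libraries of the series, chosen by their titles. All 11 came from naturally aged male BL6 mice of about 20 months, housed singly and fed chow. The mice were injected i.p. once a day for 14 days with 7.5 ml/kg of vehicle (2% DMSO, 49% PEG400 and 49% saline). The paper's methods name Taconic as their supplier, while its list of resources gives aged BL6J males from The Jackson Laboratory. The treatment field of the kidney labels is swapped against their titles and source names, and the titles were followed here. Libraries are named by tissue and by the number in their title (kidneys 45 to 49, hearts 62 to 67). Of 7 vehicle-treated mice in all, the labels do not say which kidney and which heart came from one mouse, nor which part of either organ was taken, and any difference in handling between the tissues cannot be told apart from the tissue itself.

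The kidney filters plasma in the glomerulus and then recovers most of the filtrate along the nephron. The proximal tubule takes back sodium, glucose, amino acids, phosphate and small proteins, secretes organic ions, and makes glucose and active vitamin D; the loop of Henle, distal tubule and collecting duct then set the final salt, acid and water content of urine. The ventricular cardiomyocyte instead spends its energy on contraction: calcium released from the sarcoplasmic reticulum drives sliding of sarcomeric actin and myosin, and ATP comes mostly from fatty acid oxidation in densely packed mitochondria.

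Gene counts per library ranged from 24182734 to 43792168. Levels are given as CPM (counts scaled to the same library total, per 1e+06) with TMM-scaled library sizes, as mean ± SD over 5 kidneys and 6 hearts unless single libraries are named, and differences as log2 of kidney over heart ± SE from edgeR's quasi-likelihood test, so that a positive value means higher in kidney. That test gives no SE of its own, so the SE was computed as the absolute log2 difference over the square root of the test's F value. It is approximate, above all where an organ was near 0 counts. A gene was called when its Benjamini-Hochberg adjusted p was below 0.05. Libraries of the same tissue resembled each other far more than libraries of different tissues. Pearson's r of log2 CPM across genes was at least 0.978 within kidney and 0.956 within heart, against 0.750 to 0.781 between tissues. Several libraries stood apart in a few genes. Heart 62 held airway secretory transcripts and the brown adipocyte gene Ucp1 (Bpifa1 823 CPM, Scgb1a1 208 CPM, Ucp1 112 CPM), hearts 62 and 64 had the most adipocyte transcripts (summed markers 241 and 225 CPM against 1.99 to 70.9 CPM in the other 4), heart 66 had the most atrial transcripts (summed Myl4, Myl7, Sln and Nppa 7583 CPM against 3123 to 3955 CPM in the other hearts), and kidney 48 had 118 CPM of adipocyte markers against 30.9 to 44.8 CPM in the other kidneys. Kidney 48 also had the most heart muscle transcripts of the kidneys. Leaving out 1 library moved the fold between the organs, not its log2, by over 1.5 times in 30 of 206 named genes with a fit. Of these, 24 had a mean under 1 CPM in the lower organ.

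The tissue labels matched their defining markers. Umod (ENSMUSG00000030963), which encodes uromodulin of the thick ascending limb, was counted at 3433, 3771, 3856, 3419 and 4340 CPM in kidneys 45 to 49 and between 0.0921 and 2.8 CPM, with a median of 0.801, in the hearts. Lrp2 (ENSMUSG00000027070), the megalin endocytic receptor of the proximal tubule, read 2112, 2478, 1798, 2117 and 2173 CPM in kidneys 45 to 49 and between 0.615 and 1.66 CPM, with a median of 0.867, in the hearts. Each kidney lay above each heart for both genes, and the log2 differences were 11.49 ± 0.45 and 11.12 ± 0.19. Myh6 (ENSMUSG00000040752), the alpha myosin heavy chain of the heart, stood at 0.314, 1, 0.29, 6.67 and 0.864 CPM in kidneys 45 to 49 and between 31980 and 38960 CPM, with a median of 35740, in the hearts. For Tnni3 (ENSMUSG00000035458), cardiac troponin I, the values were 0.523, 0.177, 0.355, 0.69 and 0.133 CPM in kidneys 45 to 49 and between 2517 and 3398 CPM, with a median of 2843, in the hearts. Kidney 48 had the highest Myh6 of the kidneys, still far below any heart, and the kidney mean of 1.83 CPM was 0.617 CPM without it. Myh6 is nearly identical to Myh7 in long stretches, so reads may be lost from both. These are bulk samples, in which fewer cells of a type and less RNA per cell cannot be told apart.

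**Figure D1:**
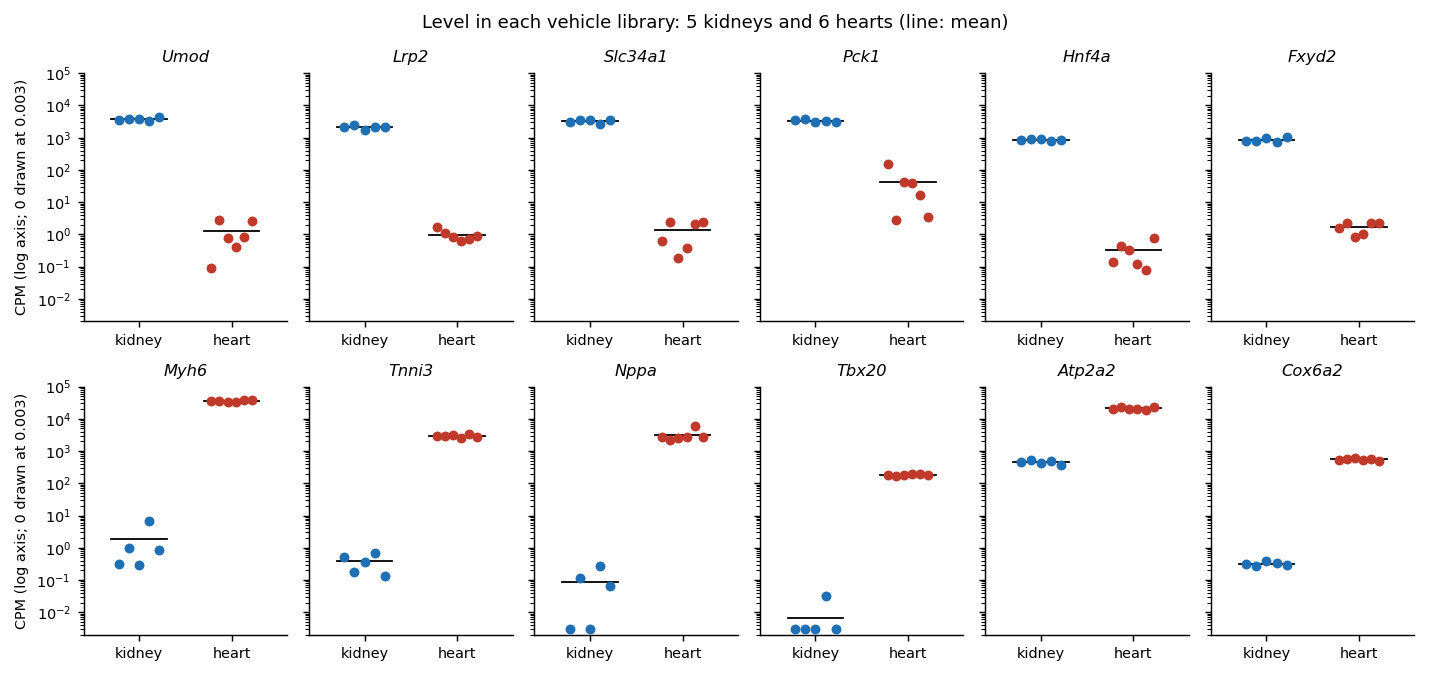
CPM on a log axis of Umod, Lrp2, Slc34a1, Pck1, Hnf4a, Fxyd2, Myh6, Tnni3, Nppa, Tbx20, Atp2a2 and Cox6a2 in each of the 5 kidney (blue) and 6 heart (red) libraries, 1 point per library, with a line at the mean and values of 0 drawn at the foot of the axis. No kidney point overlaps a heart point; the 5 kidneys lie between 3419 and 4340 CPM for Umod and the 6 hearts between 31980 and 38960 CPM for Myh6.

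Most genes differed. Of 20951 genes tested, 14117 were called, or 67.4%: 7488 (35.7%) were higher in kidney and 6629 (31.6%) higher in heart. With a difference of at least 2-fold as well, 8874 remained (42.4%), 4912 higher in kidney (23.4%) and 3962 in heart (18.9%). A test against a fold of 2 called 7161 genes (34.2%). In 53.7% of all tested genes the kidneys and hearts did not overlap, with the kidneys above in 28.7% and the hearts above in 25%. The median log2 difference over all tested genes was 0.07. With so high a background, a list's count of calls says little by itself, and the counts below are to be read together with the direction and size of the differences. Without the TMM factor, on plain library totals, the median moved by 0.45 log2 units towards kidney, and the calls split 69.9% to 30.1% in place of 53% to 47%, so the direction of genes with differences smaller than that shift depends on the scaling.

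**Figure D2:**
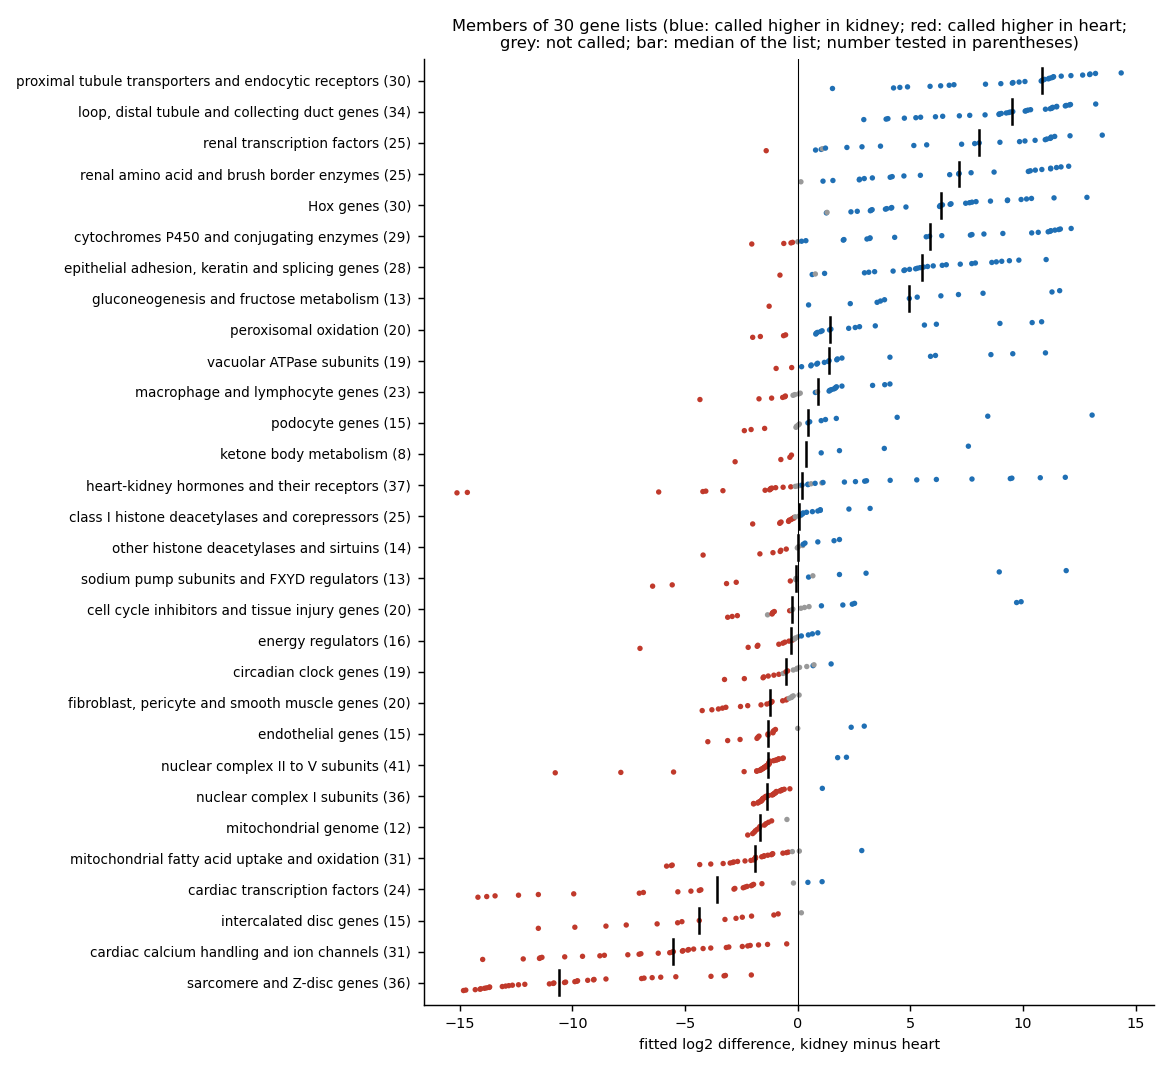
Fitted log2 difference of kidney over heart for each tested member of 30 gene lists, 1 point per gene (blue, called higher in kidney; red, called higher in heart; grey, not called), with a bar at the list's median. Tubule lists lie right of 0 and contractile lists left of 0, with medians of 10.82 for proximal tubule and -10.58 for sarcomere and Z-disc genes, and the deacetylase lists have medians of 0.05 and 0.01.

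Transport along the nephron gave the largest kidney excess. All 30 proximal tubule transporters and endocytic receptors on the list were called higher in kidney, with a median of 10.82 (10.75 with the gene at 0 in heart set at its lower bound), and in all 30 the groups did not overlap. Slc34a1, the sodium-phosphate cotransporter of the brush border, was counted at 2976, 3597, 3613, 2652 and 3476 CPM in kidneys 45 to 49 and between 0.19 and 2.48 CPM, with a median of 1.37, in the hearts. Slc22a12, the urate exchanger URAT1, averaged 1187 ± 209 CPM in kidney and 1.61 ± 0.632 CPM in heart (9.52 ± 0.23). Slc4a4, the basolateral sodium bicarbonate cotransporter, was also present in heart, with 1166 to 1544 CPM in kidney and 51 to 74.8 CPM in heart (4.53 ± 0.11). Slc34a3, a second phosphate transporter, had no count in any heart and 33 CPM in kidney, at least 1660-fold higher when heart is set at a floor of 3 counts over the group (0.0199 CPM). The lactate transporter Slc5a12 had 1 count in all 6 hearts and 226 CPM in kidney, and Slc22a2, an organic cation transporter, had 3 counts and 194 CPM. Slc22a8, the organic anion transporter OAT3, was at 274 to 409 CPM in kidney and at most 0.18 CPM in heart.

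The later segments followed the same pattern. All 34 genes of the loop, distal tubule and collecting duct were called higher in kidney, with a median of 9.49 (9.39 with genes at 0 in heart set at their lower bounds). Slc12a1, the NKCC2 cotransporter that loop diuretics block, was counted at 1346, 1678, 1546, 1477 and 2064 CPM in kidneys 45 to 49 and between 0.046 and 1.17 CPM, with a median of 0.244, in the hearts. Its distal counterpart Slc12a3, the thiazide-sensitive cotransporter NCC, averaged 838 ± 81 CPM in kidney and 0.722 ± 0.456 CPM in heart (10.21 ± 0.25). Fxyd2, the gamma subunit that tunes the renal sodium pump, stood at 857 ± 132 CPM in kidney and 1.71 ± 0.656 CPM in heart (8.94 ± 0.22). No heart had a single count of Cldn16 (tight junction), Trpv5 (calcium channel), Scnn1g (ENaC gamma subunit), Avpr2 (vasopressin V2 receptor) or Fxyd4, which gave kidney excesses of at least 533-fold, 889-fold, 2010-fold, 786-fold and 805-fold.

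Podocyte genes were the exception among renal lists. Of 15 genes used as markers of the podocyte, the cell that wraps the glomerular capillary, 8 were called higher in kidney, 3 higher in heart and 4 were not called, with a median of 0.45. On plain library totals 12 were called higher in kidney and 3 in heart, with a median of 0.90. The slit diaphragm gene Nphs1 had no count in heart and 35.7 CPM in kidney (at least 1790-fold higher). Npnt, a basement membrane ligand, was at 164 ± 27.8 CPM in kidney and 7.79 ± 4.58 CPM in heart (4.41 ± 0.33). By contrast Clic5, a chloride channel protein of podocyte foot processes, was lower in every kidney than in any heart, with 115 to 136 CPM in kidney and 479 to 568 CPM in heart (-2.07 ± 0.07), and so was the actin-associated Synpo, with 79.6 against 220 CPM (-1.47 ± 0.09). Podxl, podocalyxin of podocytes and endothelium, read 275 against 262 CPM (0.07 ± 0.07, edgeR adjusted p = 0.374), with overlapping groups.

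Genes of glucose synthesis and fructose use were mostly higher in kidney. Summed over the list of 13 genes, gluconeogenesis and fructose metabolism took 13240 ± 665.7 CPM in kidney and 579.3 ± 52.82 CPM in heart, 22.9-fold higher in kidney. Of the 13 genes, 12 were called higher in kidney and 1 in heart. Pck1, which makes phosphoenolpyruvate for glucose synthesis, stood at 3643, 3908, 3112, 3341 and 3078 CPM in kidneys 45 to 49 and between 2.8 and 148.7 CPM, with a median of 27.9, in the hearts. Every kidney was above every heart, but the heart values of Pck1 spread widely, with 148.7 CPM in heart 62 and 2.8 to 42.0 CPM in the other 5. Its difference was 6.35 ± 0.83 with all libraries and 7.38 ± 0.67 without heart 62. Heart 62 also had the most adipocyte transcripts, and their part in its Pck1 was not tested. Fbp1, the liver and kidney fructose bisphosphatase, averaged 830 ± 55.9 CPM in kidney and 0.308 ± 0.203 CPM in heart (11.28 ± 0.24). G6pc, which releases free glucose, had 349 against 0.108 CPM. Sord, sorbitol dehydrogenase, was also well represented in heart, with 1247 to 1690 CPM in kidney and 269 to 327 CPM in heart. The gene that went the other way was Fbp2, the muscle fructose bisphosphatase, at 14.1 to 24.4 CPM in kidney and 42.6 to 46.5 CPM in heart (-1.27 ± 0.11).

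Amino acid, brush border and drug-metabolizing enzymes were mostly higher in kidney as well. Of 25 amino acid and brush border enzymes, 24 were called higher in kidney and none in heart, with a median of 7.14. Ass1, which makes the arginine precursor argininosuccinate, was at 1595 ± 184 CPM in kidney and 3.78 ± 0.732 CPM in heart (8.71 ± 0.15). The brush border protease Mep1a averaged 1579 ± 176 CPM in kidney and 0.457 ± 0.336 CPM in heart, Acy3 (aminoacylase of mercapturate handling) 863 ± 221 CPM in kidney and 19.8 ± 2.02 CPM in heart, and Miox, the kidney enzyme that opens myo-inositol, 860 ± 63.2 CPM in kidney and 0.341 ± 0.407 CPM in heart. Of 29 cytochromes P450 and conjugating enzymes, 24 were called higher in kidney, 4 higher in heart and 1 was not called, with a median of 5.85; the 4 fell to 2 without heart 65 and to 1 on plain library totals. Cyp4b1 was the most abundant of them, with 1920 to 2789 CPM in kidney and 39 to 55 CPM in heart (5.70 ± 0.13). The arachidonate epoxygenase Cyp2j5 had a difference of 11.20 ± 0.31 and the glucuronosyltransferase Ugt3a2 one of 11.41 ± 0.29. Cyp2e1, which oxidizes ethanol, averaged 1181 ± 109 CPM in kidney and 20.7 ± 17.6 CPM in heart (5.85 ± 0.53) and had its 2 highest heart values in the hearts with most adipocyte transcripts, 62 and 64; the part of those cells was not tested. The glutathione transferase Gsta4 was higher in heart, at 18.1 to 25.3 CPM in kidney and 81.1 to 96.4 CPM in heart (-2.04 ± 0.09). Cyp2a5 depended on heart 62, with 4.30 ± 1.09 including it and 8.35 ± 0.68 without it, and it shares sequence with near-identical neighbours, so its count is uncertain.

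Epithelial identity genes were nearly all higher in kidney, 26 of 28, with a median of 5.50. Cdh16, the kidney-specific cadherin, stood at 893 ± 71.5 CPM in kidney and 1.37 ± 0.706 CPM in heart and the paracellular channel Cldn2 at 452 ± 13.2 CPM in kidney and 0.228 ± 0.253 CPM in heart. Cdh1, E-cadherin, was counted at 201, 212, 215, 196 and 227 CPM in kidneys 45 to 49 and between 0.121 and 7.92 CPM, with a median of 0.268, in the hearts. The highest heart value belonged to heart 62, which also carried the airway transcripts, and the difference was 7.21 ± 0.69 with it and 9.74 ± 0.17 without it. Krt19 was not called with heart 62 (0.78 ± 0.75, edgeR adjusted p = 0.376) and was called higher in kidney without it (2.11 ± 0.55, edgeR adjusted p = 0.00326). Spint2, a membrane protease inhibitor, differed less, with 184 to 210 CPM in kidney and 22.6 to 30.5 CPM in heart (2.96 ± 0.08). The scaffold Tjp1, which also sits in the intercalated disc, was the 1 gene of the list called higher in heart, at 74.2 to 98.4 CPM in kidney and 138 to 164 CPM in heart (-0.79 ± 0.08).

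The contractile apparatus was the mirror image. All 36 sarcomere and Z-disc genes were called higher in heart, with a median of -10.58, and no kidney overlapped any heart in any of them. Myh6 alone took 35670 ± 2832 CPM in heart. Tpm1, alpha tropomyosin, was counted at 110, 101, 84, 109 and 90.4 CPM in kidneys 45 to 49 and between 7872 and 9550 CPM, with a median of 8708, in the hearts, and its kidney level was the only one of the 4 leading members that was not near 0. Actc1, cardiac alpha actin, read 0.0261, 0.236, 0.0967, 2.14 and 0.266 CPM in kidneys 45 to 49 and between 7303 and 8427 CPM, with a median of 7879, in the hearts. Kidney 48 held 2.14 CPM of Actc1, more than the other 4 kidneys together, as it did for Myh6. Myl2, the ventricular regulatory light chain, had 0.174 ± 0.327 CPM in kidney and 4564 ± 486 CPM in heart, and Mybpc3, which sets cross-bridge kinetics, 0.138 ± 0.166 CPM in kidney and 3628 ± 230 CPM in heart. Without kidney 48 the kidney means of Actc1, Myl2 and Mybpc3 were 0.156, 0.0286 and 0.0662 CPM, and the Mybpc3 difference was -15.63 ± 0.19 in place of -14.73 ± 0.29. The Z-disc protein gene Myot had no count in kidney and 140 CPM in heart, at least 8360-fold higher against a kidney floor of 0.0168 CPM.

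Transcription start regions were searched for letters that known factors read. The windows run from 250 bases before to 50 bases after each gene's start, from RefSeq on GRCm38.p6, and were available for 27025 genes. The CArG box, the 10-base element read by serum response factor, stood in 8 of the 31 sarcomere and Z-disc promoters with a window (25.8%), against 1.81% of all promoters, 2.98% of the genes called and at least 16-fold higher in heart (5.18% of genes tested) and 1.19% of those at least 16-fold higher in kidney (8.13% of genes tested). The MEF2 element was found in 16.1% of the sarcomere promoters, 3.7% of all promoters and 9.98% of the genes at least 16-fold higher in heart. The GATA letters AGATAA stood in 25.8% of the sarcomere promoters, the same share as the CArG box, and in 12.7% of all promoters. Both strands were searched and no test was made. The matches are printed because the CArG box had the widest gap between this list and all promoters among the motifs searched. They are given in 30 bases each on the gene's strand, with the CArG box in capitals.
Actc1 (chr2:114052903-114052932, minus strand): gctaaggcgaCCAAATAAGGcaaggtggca
Acta1 (chr8:123894829-123894858, minus strand): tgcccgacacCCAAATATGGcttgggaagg
Myl3 (chr9:110763583-110763612, plus strand): gagccaatgcCCTTTTATGGccctgtccct
Myl7 (chr11:5898824-5898853, minus strand): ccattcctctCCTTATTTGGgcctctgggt
Myom1 (chr17:71019448-71019477, plus strand): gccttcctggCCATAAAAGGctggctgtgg
Ldb3 (chr14:34588697-34588726, minus strand): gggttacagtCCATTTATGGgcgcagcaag
Nebl (chr2:17462999-17463028, minus strand): gctcccatctCCTAAATTGGctggaaatgc
Fhl2 (chr1:43163973-43164002, minus strand): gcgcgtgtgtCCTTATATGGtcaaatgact
Fhl2 (chr1:43196838-43196867, minus strand): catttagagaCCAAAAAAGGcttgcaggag
The Fhl2 pair lies in windows of separate starts of the gene. The window of Actc1 held a CArG box 47 bases before the start, and that of Mybpc3 a MEF2 element 90 bases before it, in capitals below.
Actc1 (chr2:114052826-114053125, minus strand): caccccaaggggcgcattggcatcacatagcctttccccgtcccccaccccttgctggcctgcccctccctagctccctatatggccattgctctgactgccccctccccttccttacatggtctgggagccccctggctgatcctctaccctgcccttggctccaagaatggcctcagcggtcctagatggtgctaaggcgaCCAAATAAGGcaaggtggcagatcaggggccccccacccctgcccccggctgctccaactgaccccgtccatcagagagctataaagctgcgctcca
Mybpc3 (chr2:91117894-91118193, plus strand): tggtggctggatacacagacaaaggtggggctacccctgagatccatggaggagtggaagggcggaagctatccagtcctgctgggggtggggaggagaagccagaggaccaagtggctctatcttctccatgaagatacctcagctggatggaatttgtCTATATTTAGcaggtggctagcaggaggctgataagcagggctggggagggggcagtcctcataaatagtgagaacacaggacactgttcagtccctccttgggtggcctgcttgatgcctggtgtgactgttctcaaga

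All 31 calcium handling and conduction genes tested were called higher in heart, with a median of -5.52. The difference was at least 2-fold in 30, and in 30 the groups did not overlap. On plain library totals 30 were called. Atp2a2, the SERCA pump that refills the sarcoplasmic reticulum, was counted at 457, 533, 430, 495 and 363 CPM in kidneys 45 to 49 and between 19380 and 23880 CPM, with a median of 20250, in the hearts. Atp2a2 was the one of the 4 leading members that was not near 0 in kidney, and its difference was -5.52 ± 0.13. Its inhibitor Pln, phospholamban, was close to absent from kidney, with 1.54 to 2.64 CPM in kidney and 4966 to 6321 CPM in heart (-11.35 ± 0.17). Ryr2, the cardiac calcium release channel, stood at 1.09 ± 0.375 CPM in kidney and 2954 ± 348 CPM in heart (-11.43 ± 0.22), and Hrc, which buffers calcium in the reticulum, at 0.457 ± 0.117 CPM in kidney and 1305 ± 116 CPM in heart (-11.46 ± 0.15). Of 15 intercalated disc genes, which join cardiomyocytes end to end, 14 were called higher in heart, with a median of -4.37. Dsp, desmoplakin, was at 48.8 to 85.7 CPM in kidney and 2261 to 2927 CPM in heart (-5.33 ± 0.15). Nrap, Popdc2 and Xirp1 had larger differences, -8.51, -11.51 and -9.89. The cadherin of the disc, Cdh2, averaged 10.7 ± 1.33 CPM in kidney and 378 ± 23.8 CPM in heart (-5.14 ± 0.10). Myoglobin (Mb), the oxygen store of heart muscle, stood at 0.571 ± 0.802 CPM in kidney and 9389 ± 762 CPM in heart, with 0.221 CPM in kidney without kidney 48.

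Transcription factors of each organ followed the organ. Of 25 renal factors, 23 were called higher in kidney, 1 higher in heart and 1 was not called, with a median of 8.05. Hnf4a, which drives proximal tubule gene expression, was counted at 827, 931, 895, 808 and 842 CPM in kidneys 45 to 49 and between 0.0804 and 0.798 CPM, with a median of 0.235, in the hearts. Foxi1, the factor of intercalated cells, was at 0 in heart and at 18.1 CPM in kidney. Pax2 and Pax8, needed to form the nephron, were still present in the old kidneys, with 34.3 against 0.0387 CPM for Pax2 and 79.6 against 0.0376 CPM for Pax8 (kidney against heart, as in other such pairs of means). Tfcp2l1 of the collecting duct and the bile acid receptor Nr1h4 differed by 8.05 ± 0.22 and 7.27 ± 0.18. Osr1 went the other way at a low level, 1.61 to 2.94 CPM in kidney and 3.85 to 9.21 CPM in heart (-1.40 ± 0.24).

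Among 24 cardiac factors with enough counts, 21 were called higher in heart and 2 higher in kidney, with a median of -3.57. Nkx2-5 and Hand2 had no count in kidney and 59.5 and 46.2 CPM in heart, at least 3540-fold and 2750-fold higher. Tbx20 was counted at 174 to 199 CPM in heart, with 1 kidney at 0.0329 CPM and the other 4 at 0. Tbx5, which patterns the heart and its conduction system, averaged 0.0229 against 77.3 CPM. Smyd1, a muscle methyltransferase needed for heart formation, was the most abundant of the list, with 0.366 to 0.709 CPM in kidney and 510 to 616 CPM in heart (-9.94 ± 0.15). The MEF2 factors were shared, with Mef2a at 58.6 against 244 CPM (-2.06 ± 0.10) and Mef2d at 53.4 against 216 CPM (-2.01 ± 0.07). Irx3 was called higher in kidney at 34.8 against 25.5 CPM, with overlapping groups.

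Hox genes, which record position along the body axis, were nearly all higher in kidney. Of 38 Hox genes matched, 30 had enough counts, 29 were called higher in kidney and none in heart, with a median of 6.38 (6.30 with genes at 0 in heart set at their lower bounds). Hoxd8 was the most abundant, counted at 84.5, 93.6, 98.9, 104 and 90.6 CPM in kidneys 45 to 49 and between 0.677 and 1.47 CPM, with a median of 1.21, in the hearts. Hoxa7 averaged 45.5 ± 1.98 CPM in kidney and 0.53 ± 0.324 CPM in heart and Hoxd9 30.4 ± 3.15 CPM in kidney and 0.364 ± 0.251 CPM in heart. Hoxa10 was at 28.7 to 33.5 CPM in kidney and had no count in any of the 6 hearts, which is at least 1520-fold. The same held at lower level for Hoxa11, Hoxc9, Hoxc10, Hoxc11 and Hoxd11, at 2.62, 4.75, 11, 0.88 and 0.727 CPM in kidney and 0 in heart. The anterior members Hoxb2 and Hoxb4 had 1.06 and 0.977 CPM in heart, and their differences were smaller than the median, 3.22 ± 0.18 and 3.25 ± 0.27. Counts in heart were not particular to anterior members. Hoxd8 had a median of 1.21 CPM there, and the anterior Hoxa2 only 0.188 CPM. Only Hoxa2 was tested and not called (0.482 against 0.188 CPM). The 8 without enough counts came from the first or the last positions of the clusters.

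**Figure D3:**
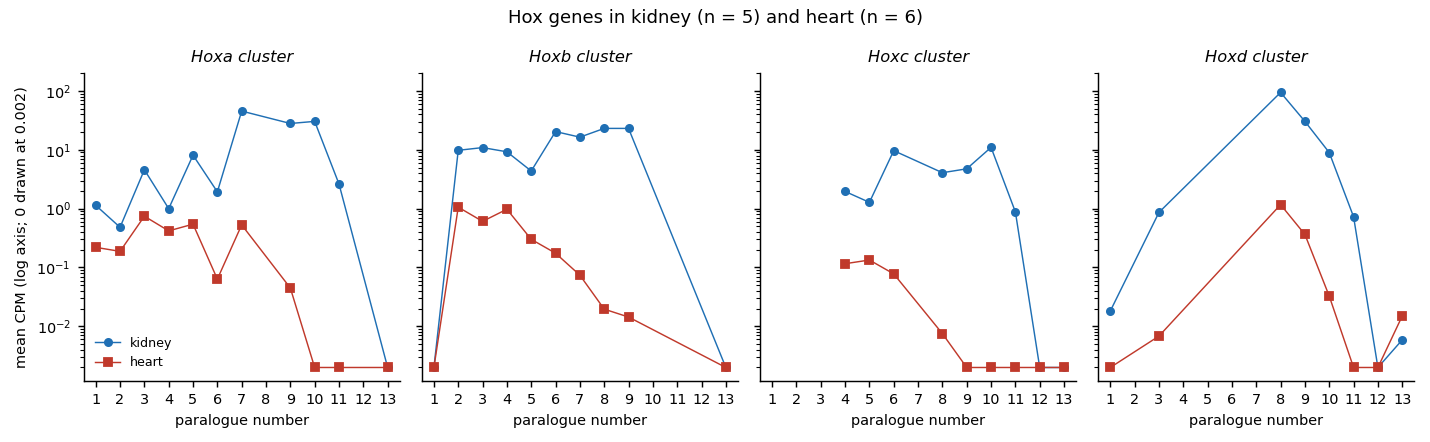
Mean CPM on a log axis of Hox genes in kidney (blue, n = 5) and heart (red, n = 6) by paralogue number within the Hoxa, Hoxb, Hoxc and Hoxd clusters, with 0 drawn at the foot of the axis. Kidney reaches 94.3 CPM for Hoxd8, while no Hox gene passes 1.17 CPM in heart, and Hoxa10, Hoxa11, Hoxc9, Hoxc10, Hoxc11 and Hoxd11 are at 0 there.

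Energy genes differed in direction from pathway to pathway. The 37 genes of the mitochondrial genome took 5.92 ± 0.853% of counts in kidney (4.83 to 6.72%) and 17.6 ± 1.59% in heart (15.3 to 19.2%), 2.97-fold more in heart (exact two-sided permutation test over 11 libraries, p = 0.00216, the smallest that 5 against 6 allows). Of the 12 protein-coding mitochondrial genes with enough counts, 11 were called higher in heart. mt-Co1, of cytochrome c oxidase, was counted at 13630, 15300, 20090, 18550 and 19020 CPM in kidneys 45 to 49 and between 67730 and 91330 CPM, with a median of 83480, in the hearts. mt-Cytb and mt-Nd5 differed by -1.68 ± 0.13 and -2.0 ± 0.13. Several mitochondrial genes overlap or have nuclear copies, and reads of uncertain origin were not counted by the authors' tool, so levels of mt-Atp8, mt-Atp6, mt-Nd3 and mt-Nd4l are not given. The libraries were made with oligo-dT, so mitochondrial shares are of polyadenylated RNA.

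Nuclear respiratory chain genes were also higher in heart. Summed over both lists, they took 14290 ± 1315 CPM in kidney and 37450 ± 1402 CPM in heart, 2.62-fold more in heart. Of 36 nuclear complex I subunits 35 were called higher in heart, with a median of -1.38, and of 41 subunits of complexes II to V 39 were, with a median of -1.34. On plain library totals these became 30 and 37, with smaller medians of -0.93 and -0.89, so the size of the excess depends on the scaling. Ndufs1, which carries electrons from NADH, stood at 297 to 330 CPM in kidney and 969 to 1162 CPM in heart (-1.73 ± 0.07). Atp5b, the catalytic subunit of ATP synthase, was counted at 2256, 2518, 2713, 2275 and 2531 CPM in kidneys 45 to 49 and between 5328 and 6353 CPM, with a median of 5807, in the hearts. Sdha and Cox4i1 differed by -1.26 ± 0.07 and -1.35 ± 0.07. The genes against this direction were Cox6a1 and Cox8a, both of which have a muscle isoform, and Ndufb2, whose count of under 5 CPM in every library is low for a subunit and is uncertain.

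Fatty acid use gave a wider gap. The list of 31 genes covers fatty acid uptake and mitochondrial oxidation. It summed to 6426 ± 167.4 CPM in kidney and 33500 ± 1286 CPM in heart, 5.21-fold more in heart. Of the 31 genes, 28 were called higher in heart, 1 in kidney and 2 were not called. The sum is not of mitochondrial genes alone, since the uptake genes Lpl, Fabp3 and Cd36 were among its most abundant members. Mitochondrial oxidation was not summed without them. Lpl, which frees fatty acids from lipoproteins, was counted at 372, 364, 504, 404 and 523 CPM in kidneys 45 to 49 and between 7940 and 9664 CPM, with a median of 9066, in the hearts. Fabp3, the heart fatty acid binding protein, averaged 51.2 ± 9.18 CPM in kidney and 2899 ± 164 CPM in heart (-5.82 ± 0.13), the uptake receptor Cd36 444 ± 52.4 CPM in kidney and 2835 ± 142.5 CPM in heart (-2.67 ± 0.09), and Hadha of the trifunctional protein 253 ± 7.68 CPM in kidney and 2022 ± 187 CPM in heart (-3.00 ± 0.08). Cpt1a, the carnitine palmitoyltransferase of liver and kidney, was the exception at 465 to 597 CPM in kidney and 74.8 to 87.3 CPM in heart (2.84 ± 0.08). Its muscle isoform Cpt1b was under 5 CPM even in heart, a count that is uncertain because the gene overlaps a neighbour.

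Peroxisomal oxidation ran the other way, with 11580 ± 721.9 CPM in kidney and 4727 ± 265 CPM in heart, 2.45-fold more in kidney. Of 20 genes, 16 were called higher in kidney and 4 in heart, with a median of 1.44. Slc27a2, which activates very long chain fatty acids, was counted at 3017, 3404, 3844, 2849 and 3816 CPM in kidneys 45 to 49 and between 0.845 and 5.52 CPM, with a median of 2.19, in the hearts. Ehhadh, the bifunctional enzyme of the pathway, averaged 996 ± 170 CPM in kidney and 20.2 ± 2.1 CPM in heart (5.62 ± 0.13). Hao2 and Acaa1b showed the same, with 517 against 0.26 CPM and 345 against 0.712 CPM. The 4 genes higher in heart were Crat, Ech1, Eci2 and Phyh, of which the first 3 also act in mitochondria. Crat, which shuttles acetyl groups on carnitine, stood at 141 to 169 CPM in kidney and 595 to 695 CPM in heart (-2.0 ± 0.07).

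Genes for the uptake and use of ketone bodies were called higher in heart. Slc16a1, a transporter of lactate and ketone bodies, was higher in heart, with 20.4 to 67.8 CPM in kidney and 289 to 335 CPM in heart (-2.78 ± 0.22), and among kidneys it was highest in kidneys 45 and 48. Oxct1 and Acat1, which use ketone bodies, were called higher in heart, with differences of -0.35 ± 0.07 and -0.28 ± 0.08 that turned to 0.11 and 0.17 on plain library totals. Of 16 regulators of energy metabolism 9 were called higher in heart, 4 in kidney and 3 were not called, while on plain library totals the majority turned, to 6 in heart and 8 in kidney (median 0.15 in place of -0.31). Perm1, a muscle partner of PGC-1, was counted at 2.59 to 4.9 CPM in kidney and 417 to 521 CPM in heart (-7.00 ± 0.15). Ppargc1a and Esrra differed modestly, with 86.6 against 137 CPM (-0.66 ± 0.10) and 111 against 165 CPM (-0.57 ± 0.07). Ppara, the fatty acid receptor, was at 60.3 against 60.3 CPM (0.00 ± 0.07). Prkaa2 read 236 against 276 CPM (-0.23 ± 0.06), with overlapping groups and 0.22 on plain library totals. Klf15 and Esrrg were called higher in kidney with overlapping groups, by 0.65 ± 0.16 and 0.16 ± 0.07.

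**Figure D4:**
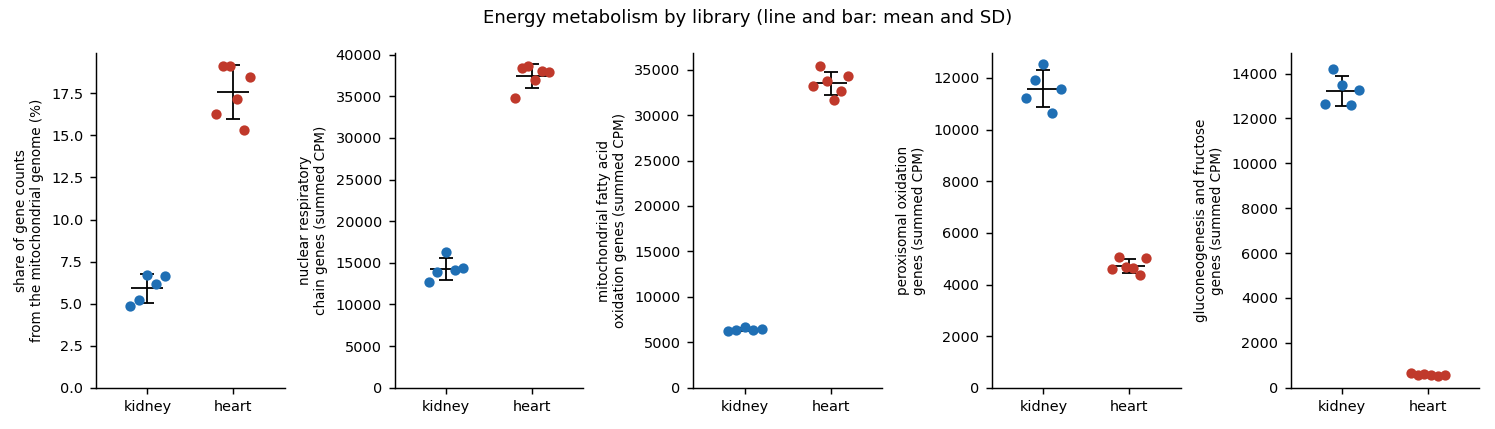
Share of gene counts from the mitochondrial genome (%) and summed CPM of 4 energy pathways in each library (blue, 5 kidneys; red, 6 hearts; black, mean and SD). Hearts lie above kidneys for the mitochondrial share, the respiratory chain and the fatty acid genes. They lie below them for peroxisomal oxidation and gluconeogenesis. The panel of mitochondrial fatty acid oxidation also holds the uptake genes of that list, such as Lpl, Fabp3 and Cd36.

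Related genes for the same step were present in different proportions. For 27 pairs of related genes the log2 ratio of counts of the first to the second (1 count added to each) was computed within each library, so that no scaling factor enters, though the added count weighs by depth where a gene is at or near 0. In most pairs the first gene is general or epithelial in use and the second that of muscle. In all 27 pairs every kidney had a higher ratio than every heart. The pairs and their order were chosen with earlier results of these data known, so the shared direction was largely set by that choice. The p-values carry the same limit, and 53.7% of single genes tested also did not overlap between the tissues. The exact two-sided permutation p was 0.00216 for 25 pairs and 0.00433 for Gys2 over Gys1 and Pck1 over Pck2. Creatine kinases gave wide differences. Mitochondrial Ckmt1 over Ckmt2 was 9.25 ± 1.69 in kidney and -12.28 ± 2.18 in heart, and cytosolic Ckb over Ckm was 10.23 ± 1.58 and -5.32 ± 0.20. Ckm and Ckmt2 were near 0 in kidney and at 1667 and 1846 CPM in heart, and Ckmt1 was at 0.742 CPM in heart, so these ratios rest on few counts and the added count, and neither pair has a value in every library without it.

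Cytochrome oxidase subunits differed in the same way. Cox6a1 over Cox6a2 was 9.07 ± 0.13 in kidney and -3.74 ± 0.23 in heart, and per kilobase of exon kidney had 264 CPM of Cox6a1 and 0.481 of Cox6a2, while heart had 59.2 and 836. Cox7a2 over Cox7a1 was 5.40 ± 0.39 and 0.55 ± 0.29, so heart used both forms. In glycolysis Eno1 over Eno3 was 7.37 ± 0.12 and -2.63 ± 0.24, and Pgam1 over Pgam2 2.77 ± 0.29 and -2.05 ± 0.26. Hk1 over Hk2 was 5.31 ± 1.23 and -0.61 ± 0.15, and the spread in kidney came from Hk2, highest in kidneys 45 and 48 (8.78 and 7.62 CPM against 1.42 to 3.16 CPM). The glucose carriers Slc2a2 over Slc2a4 stood at 3.02 ± 0.13 and -9.59 ± 1.18. The ADP/ATP carriers Slc25a5 over Slc25a4 were at 1.73 ± 0.10 and -4.03 ± 0.13, and the brain over the muscle form of glycogen phosphorylase, Pygb over Pygm, at 2.98 ± 0.25 and -0.04 ± 0.10. The acetyl-CoA carboxylases Acaca over Acacb were at -0.47 ± 0.30 and -4.13 ± 0.63. Lactate dehydrogenase was the pair that differed least, with Ldha over Ldhb at -1.01 ± 0.11 in kidney and -1.37 ± 0.13 in heart. Both organs favoured Ldhb, per kilobase at 632 against 165 CPM in kidney and at 991 against 202 CPM in heart.

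**Figure D5:**
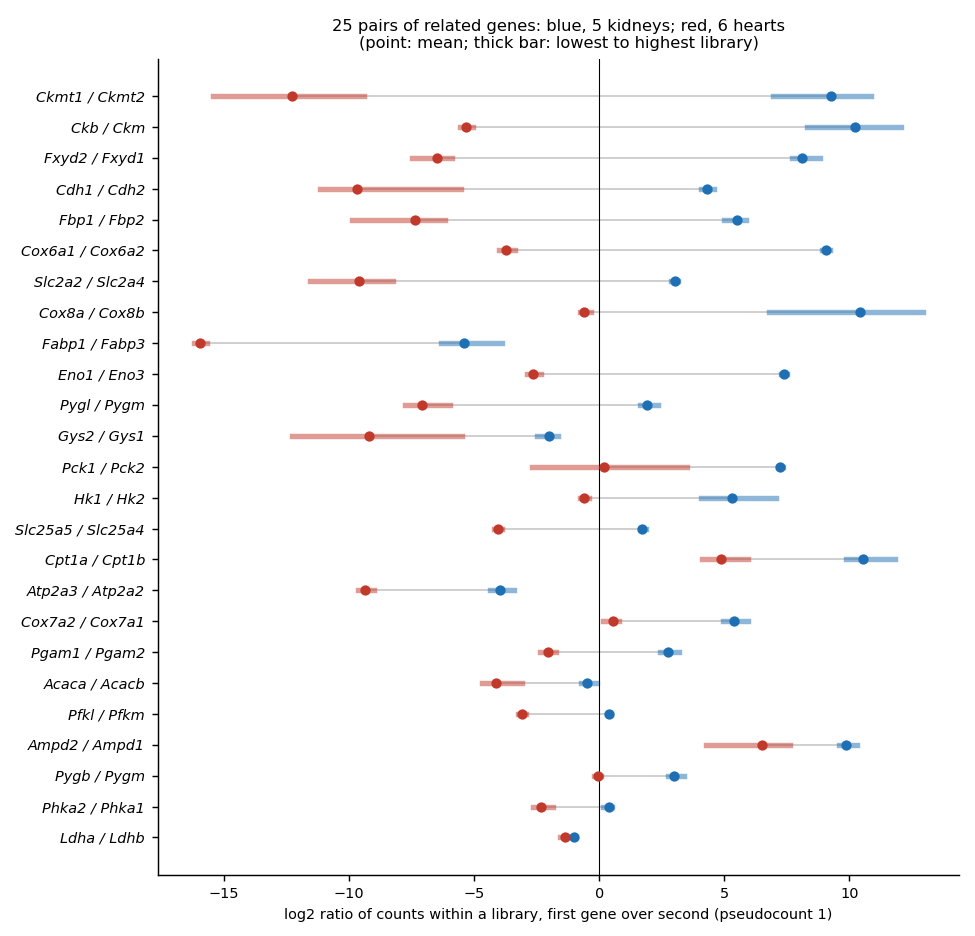
Log2 ratio of counts within a library for 25 of the 27 gene pairs, as mean and range over 5 kidneys (blue) and 6 hearts (red). In every pair drawn the lowest kidney lies above the highest heart, from a mean difference of 0.35 for Ldha over Ldhb to 21.53 for Ckmt1 over Ckmt2.

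Ion pump genes differed both in level and in the subunits present. Atp1b1, the beta subunit of the sodium pump, averaged 2240 ± 210 CPM in kidney and 274 ± 15 CPM in heart (3.03 ± 0.08). The regulators of that pump differed too. Fxyd2 over Fxyd1 stood at 8.12 ± 0.47 and -6.47 ± 0.64, with phospholemman (Fxyd1) at 2.26 to 3.48 CPM in kidney and 134 to 156 CPM in heart. Over all 13 pump genes 5 were called higher in kidney, 5 in heart and 3 were not called. The vacuolar proton pump, which acidifies urine in intercalated cells and lysosomes everywhere, was called higher in kidney in 17 of 19 subunits, with a median of 1.39. Atp6v0a4, an isoform of the renal pump, was counted at 285, 330, 291, 298 and 285 CPM in kidneys 45 to 49 and between 0.23 and 1.43 CPM, with a median of 0.609, in the hearts. Atp6v1a averaged 579 ± 29.5 CPM in kidney and 34.1 ± 2.32 CPM in heart (4.09 ± 0.07), and the widely used Atp6v1e1 226 ± 9.38 CPM in kidney and 126 ± 9.17 CPM in heart (0.84 ± 0.06). The isoforms Atp6v0a1 and Atp6v0a2 were higher in heart, with differences of -0.96 ± 0.07 and -0.27 ± 0.06, the latter turning to 0.18 on plain library totals.

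Hormones and receptors that link the organs were divided, with 17 of 37 called higher in kidney, 15 in heart and 5 not called. The split depended on the scaling, with 22 in kidney and 13 in heart on plain library totals (median 0.64 in place of 0.19). With upper-quartile scaling it was 15 and 16. The natriuretic peptides were cardiac. Nppa, the atrial peptide, was counted at 0, 0.118, 0, 0.263 and 0.0665 CPM in kidneys 45 to 49 and between 2241 and 5838 CPM, with a median of 2780, in the hearts. Heart 66 was the highest by far and also had the most atrial transcripts; without it the difference was -14.86 ± 0.32 in place of -15.12 ± 0.49, and without kidney 48, which had the highest kidney value, -15.91 ± 0.54. Nppb had 284 to 567 CPM in heart and at most 0.0329 CPM in kidney, and Corin, the protease that activates the atrial peptide, had 5.7 against 413 CPM. Their receptor Npr1 was at 36.5 against 39.3 CPM (-0.11 ± 0.09) and was not called, while the clearance receptor Npr3 was higher in heart, 30.4 against 82.8 CPM. Of the renin system, Ren1 had 45.9 against 0.0519 CPM, the angiotensin-converting enzyme Ace 199 against 91.7 CPM, and the angiotensin receptor gene Agtr1a 35.6 against 35.7 CPM (-0.01 ± 0.10, not called). For mineral balance, Kl, the klotho co-receptor of FGF23, was counted at 474, 619, 593, 457 and 540 CPM in kidneys 45 to 49 and between 0 and 0.967 CPM, with a median of 0.277, in the hearts. Pth1r averaged 414 ± 28.9 CPM in kidney and 10.7 ± 1.82 CPM in heart (5.28 ± 0.12), Vdr had 208 against 2.94 CPM and Cyp27b1, which activates vitamin D, 21.9 against 0.0931 CPM. Hsd11b2, which protects the mineralocorticoid receptor from cortisol-like steroids, had 111 against 0.133 CPM, and the receptor itself, Nr3c2, had more in heart, 22.8 against 35.6 CPM. Heart carried more of the beta-adrenergic receptor Adrb1 (1.93 against 19.2 CPM) and of the insulin receptor Insr (131 against 314 CPM), and kidney more of Igf1r (280 against 47.4 CPM).

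The deacetylases that the study's drug, Cmpd60, inhibits were present in both organs. Hdac1 was counted at 45.3, 44, 45, 47.5 and 42.9 CPM in kidneys 45 to 49 and between 19.5 and 29.2 CPM, with a median of 21.4, in the hearts. It was called higher in kidney, with a difference of 1.0 ± 0.09 and an edgeR adjusted p of 1.32e-07. Hdac2 was counted at 40.8, 39.1, 48.6, 44.2 and 50.4 CPM in kidneys 45 to 49 and between 49.2 and 59.9 CPM, with a median of 54.7, in the hearts, with overlapping groups and a difference of -0.29 ± 0.08 (edgeR adjusted p = 0.00523) that turned to 0.16 on plain library totals. Of 25 class I deacetylase and corepressor genes, 11 were called higher in kidney, 11 higher in heart and 3 were not called, with a median of 0.05. The split depended on the scaling, with 17 higher in kidney and 4 in heart on plain library totals (median 0.50) and 7 and 12 with upper-quartile scaling. Chd3, a remodeler of the NuRD complex, stood out in kidney, counted at 469, 470, 484, 350 and 558 CPM in kidneys 45 to 49 and between 45.5 and 60.2 CPM, with a median of 47.8, in the hearts. Its paralog Chd4 read 326 against 368 CPM (-0.17 ± 0.07, turning to 0.28 on plain library totals). Rbbp7 was higher in heart, at 98.9 against 170 CPM (-0.78 ± 0.06), and the corepressor Ncor1 was not called, at 249.1 against 241 CPM. Among 14 other deacetylases and sirtuins 5 were called higher in kidney and 6 in heart, against 8 and 5 on plain library totals and 3 and 6 with upper-quartile scaling. Hdac6, the tubulin deacetylase, was higher in kidney, with 64.1 to 80.2 CPM in kidney and 20.8 to 25.4 CPM in heart (1.61 ± 0.07). Hdac5 and Hdac9, which restrain MEF2 in muscle, were higher in heart, at 57.4 against 123 CPM and 1.76 against 32.5 CPM. Mitochondrial Sirt3 was higher in kidney (64.4 against 34.7 CPM) and Sirt5 in heart (9.77 against 31.3 CPM), while Sirt1 was at 19.7 against 19.9 CPM (-0.02 ± 0.08, not called).

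Clock genes were the list with the largest share not called, 8 of 19, with 9 called higher in heart and 2 in kidney (7 and 6 on plain library totals). Tef, a clock output factor, was counted at 138, 214, 251, 159 and 320 CPM in kidneys 45 to 49 and between 102 and 226 CPM, with a median of 169, in the hearts, and was not called (0.40 ± 0.21). Hlf followed the same order among kidneys and was higher than in heart, with 70.9 to 122 CPM in kidney and 22.8 to 49.2 CPM in heart (1.48 ± 0.17), and Rora was higher too, at 74.6 to 82.5 CPM in kidney and 39.1 to 54.8 CPM in heart (0.68 ± 0.08). Nr1d1, the repressor Rev-erb alpha, was higher in heart, at 58.3 to 69.9 CPM in kidney and 98.1 to 128 CPM in heart (-0.84 ± 0.07), and Bhlhe41 averaged 3.98 against 37.9 CPM.

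Injury genes varied among the old kidneys. Spp1, osteopontin, was counted at 1693, 978, 780, 3016 and 928 CPM in kidneys 45 to 49 and between 0.402 and 2.75 CPM, with a median of 1.92, in the hearts. Havcr1, the tubular injury marker KIM-1, stood at 55.7, 17.7, 13.9, 107 and 17.5 CPM in kidneys 45 to 49 and between 0 and 0.123 CPM, with a median of 0.0237, in the hearts. Kidneys 45 and 48 were the highest in both genes, and again in Clu (635 and 781 CPM against 294 to 431 CPM) and Vcam1 (78.3 and 92.0 CPM against 31.6 to 46.8 CPM). Whether these 2 mice had more tubular damage was not tested. Spp1 and Havcr1 were called higher in kidney (9.71 ± 0.47 and 9.91 ± 0.87, the latter 9.21 ± 0.61 without kidney 48 and 10.57 ± 1.02 without heart 65), Clu was called higher in heart at 500 against 1094 CPM, and Vcam1 was not called (0.50 ± 0.22, edgeR adjusted p = 0.0586). Ccn2, a matrix factor, was higher in heart, with 68.8 to 93.1 CPM in kidney and 114 to 236 CPM in heart (-1.04 ± 0.15), as was Cdkn1a at 20.3 against 43.4 CPM. The senescence gene Cdkn2a was under 1 CPM in both tissues, 0.0466 against 0.316 CPM. In all, 8 of 20 genes of cell cycle inhibition and injury were called higher in heart, 6 in kidney and 6 were not called; on plain library totals 6 were higher in heart and 9 in kidney (median 0.22 in place of -0.23).

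Vessel and stroma genes were mostly higher in heart. Of 15 endothelial genes 12 were called higher in heart and 2 in kidney, with a median of -1.32. Pecam1 and Kdr, general endothelial markers, were at 65.4 to 84.2 CPM in kidney and 239 to 292 CPM in heart and at 76.4 to 115 CPM in kidney and 288 to 366 CPM in heart, with differences of -1.72 ± 0.08 and -1.81 ± 0.10. Cav1 of caveolae averaged 31.5 ± 9.25 CPM in kidney and 272 ± 21.5 CPM in heart (-3.11 ± 0.16). The 2 higher in kidney mark fenestrated endothelium: Plvap, the diaphragm protein, at 130 to 163 CPM in kidney and 15.9 to 23.2 CPM in heart (2.95 ± 0.10), and Ehd3, of glomerular capillaries, at 41.4 to 48.4 CPM in kidney and 7.58 to 11.8 CPM in heart (2.37 ± 0.11). Of 20 fibroblast, pericyte and smooth muscle genes 15 were called higher in heart and none in kidney, with a median of -1.21. Gsn, gelsolin, was at 126 to 154.8 CPM in kidney and 1735 to 2133 CPM in heart, the pericyte marker Rgs5 at 76 against 869 CPM and the small proteoglycan Dcn at 70.7 against 715 CPM, with differences of -3.81, -3.52 and -3.34. Fibrillar collagens differed less, with Col1a1 at 71.6 against 102 CPM and Col3a1 at 86.1 against 203 CPM, and Col4a1, of basement membranes, overlapped between groups (-0.48 ± 0.15).

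Immune genes differed in direction among themselves. Of 23 macrophage and lymphocyte genes 12 were called higher in kidney, 6 in heart and 5 were not called (14 in kidney and 3 in heart on plain library totals). Class II antigen presentation genes were higher in kidney, with Cd74 at 214 to 413 CPM in kidney and 49.6 to 204 CPM in heart (1.68 ± 0.32) and H2-Ab1 at 122 to 261 CPM in kidney and 22.9 to 103 CPM in heart (1.96 ± 0.34); heart 65 was the highest heart in both. T cell genes were low in both tissues and higher in kidney, such as Cd3g at 1.74 against 0.528 CPM. The 8 macrophage genes of the list, grouped after their values were seen, had 6 called higher in heart and 2 not called (Csf1r and Adgre1), with Lyz2 at 66.8 to 131 CPM in kidney and 163 to 262 CPM in heart (-1.16 ± 0.16), Mrc1 at 9.88 to 22.4 CPM in kidney and 43.5 to 64.3 CPM in heart (-1.72 ± 0.19) and Cd163 at 2.14 against 43.6 CPM. Immunoglobulin transcripts, made by plasma cells, varied widely. Ighm was counted at 1219, 329, 326, 93.7 and 421 CPM in kidneys 45 to 49 and between 12.4 and 172 CPM, with a median of 22, in the hearts. The groups overlapped, and the difference was 3.32 ± 0.73 with all libraries, 2.61 ± 0.67 without kidney 45 and 4.37 ± 0.58 without heart 62. Kidney 45 alone carried Igkv4-63 (68.3 CPM) and Ighv1-18 (65.9 CPM), against at most 3.41 CPM and 2.90 CPM of either in any other library. These variable segments were among the 3 most variable genes of kidney; the third was Entpd4, at 2.73 to 29.7 CPM. In heart the most variable were Bpifa1, Ucp1 and Ltf, all highest in heart 62.

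The most abundant transcripts differed between the organs. Read counts were compared here without regard to length. The 10 most abundant nuclear genes took 6.64 ± 0.280% of counts in kidney and 10.3 ± 0.331% in heart (exact two-sided permutation p = 0.00216). In kidney they were led by Gpx3, the plasma glutathione peroxidase that proximal tubules secrete, counted at 13780, 15360, 15430, 15430 and 16000 CPM in kidneys 45 to 49 and between 507 and 849 CPM, with a median of 590, in the hearts. Kap, an androgen-regulated protein of the mouse proximal tubule, followed at 6772 to 10130 CPM in kidney and 1.29 to 12.2 CPM in heart (10.69 ± 0.60). In heart Myh6 led, before Atp2a2, Mb and Lpl. Apob, better known from liver and gut, was at 431 to 638 CPM in kidney and at most 0.123 CPM in heart, and S100g, a calcium binding protein of the distal tubule, at 109 to 196 CPM with 1 count in all hearts. ENSMUSG00000098178, an ID with no symbol in the tables used, was among the 10 in kidney at 2916 to 5290 CPM, and was at 4730 to 6393 CPM in heart (-0.35 ± 0.15, turning to 0.10 on plain library totals).

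Genes of one tissue only were counted as those with at least 1 CPM in every library of one organ and at most 3 reads over all libraries of the other. There were 236 for kidney, 186 of them with a symbol, and 137 for heart, 85 with a symbol. The most abundant in kidney were Slc5a12, Slc22a2 and Lrrc19 (226, 194 and 182 CPM). In heart they were Nppb (399 CPM), Bmp10 (295 CPM), an atrial growth factor with no count in any kidney, and 3425401B19Rik (214 CPM). With no count at all allowed in the other organ, 119 and 70 were left. At the other end, 2886 genes (13.8%) had a 95% interval of the difference, computed from the approximate SE, inside -0.5 to 0.5. Of these, 986 were also called, and the shift of 0.45 on plain library totals is nearly as wide as that margin.

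Kidneys and hearts of mice given Cmpd60, the deacetylase inhibitor of the study, gave the comparison again in other libraries (6 kidneys and 5 hearts). Of 13835 genes called in vehicle and tested in both, 13620 had the same direction and 11900 (86%) were also called. Each of the tubule transport and sarcomere genes kept its direction and its call (30 of 30, 34 of 34 and 36 of 36), and so did all 29 Hox genes. Among the 7 genes called in opposite directions was Slc12a2, the NKCC1 cotransporter, at 0.36 in vehicle and -0.30 in treated mice. Ephx1, an epoxide hydrolase, read -0.23 in vehicle and 0.62 in treated mice, and the cytokine Il33 0.57 and -0.47. The others were Cbx5, Alkbh6, BC029722 and ENSMUSG00000100975. Of the 7, only Il33 had a vehicle difference wider than the shift of 0.45 on plain library totals, and the treated libraries were scaled on their own. The difference between the treated and the vehicle comparison was not tested here.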

How the data were processed

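RNA-seq was done by the authors on oligo-dT selected, directional libraries of whole tissue. Per the labels, reads were checked with FastQC, trimmed with Trimmomatic 0.32, aligned with HISAT2 2.1.0 and counted per Ensembl gene with HTSeq 0.11.0; the genome build is not given in the sources used here. The deposited values are raw counts per gene, 1 table per library, with 54232 IDs and 5 summary lines, which were left out (16.7 to 21.3% of all lines' counts). HTSeq leaves out reads that match several places or overlapping genes, so counts of paralogs and overlapping genes are low or uncertain. Symbols came from the reference tables for 32651 IDs, which held 98.7% of counts.

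Groups followed the titles. Genes whose count passed 2 in 3 or more of the 11 libraries were tested with edgeR 4.0.16 (quasi-likelihood, TMM) in R 4.3.3, p-values were adjusted by Benjamini-Hochberg over all 20951 genes, and single values were tested by an exact two-sided permutation of libraries. The p-values measure the spread between these libraries, which the labels do not tie to single mice. Depth was 24182734 to 43792168 counts, so that 3 counts over a group, over the summed TMM-scaled library sizes, correspond to 0.0199 CPM in heart and 0.0168 CPM in kidney; floors cover counting error only. The fit was also run on simulated counts with few changed genes, as many up as down. That setting cannot check the scaling of data in which most genes differ. DESeq2 1.42.0, limma-voom (limma 3.58.1), other scalings and filters, and leaving out each library were tried as alternatives. Promoter windows came from RefSeq (GRCm38.p6) by symbol. Members and gene lists were chosen with earlier results of these data known. Named genes were the markers, the 10 most abundant genes of each tissue, the 5 largest folds in each direction at 100 CPM or more, of each list the 4 most abundant members and up to 2 called against its direction, every isoform pair, Hdac1 and Hdac2, the 3 leading genes of one tissue only and the 3 most variable genes of each tissue; other list members were named after their values were seen. The results of some genes and motifs that these rules would name are not reported here.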

Additional observations from a re-analysis of the deposited data

Results flagged for a closer look

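Among 396 groups of 5 kidneys or 6 hearts with a mean of at least 1 CPM, 49 had a highest or lowest library whose gap to the next was large against the group's range (Dixon's test at 95%). Chance flags about 1 group in 20, but the 49 cannot be set against that rate, since the groups include genes named because they were the most variable and marker sums beside their own members.

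Heart 62 was set apart 15 times. It was high in Bpifa1 (822.9 CPM, other hearts at most 34.3), Ltf (139.2 CPM, at most 8.01), the lung marker sum (208.3 CPM, at most 13.8), the urothelium marker sum (7.134 CPM, at most 2.51), Cdh1 (7.916 CPM), Spint2 (30.51 CPM) and Ighm (171.8 CPM). The lung sum was Scgb1a1 alone, and the urothelium sum was mostly Krt5 (3.91 CPM) and Upk1b (2.85 CPM). Heart 62 had no count of the other lung markers Sftpc and Sftpb, or of the urothelium markers Upk2 and Upk3a. It was also high in Ucp1 and so in the brown adipocyte marker (112.4 CPM, at most 33.9), Pck1 (148.7 CPM), Acaca (91.54 CPM), Gys2 (4.142 CPM) and Atp2a3 (37.60 CPM), and low in Acy3 (16.06 CPM) and Slc25a4 (3647 CPM).

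Heart 66 was high in the atrial marker sum (7583 CPM), Nppa (5838 CPM), the red cell marker sum (2215 CPM, other hearts at most 1075), Gpx3 (849.1 CPM) and Pecam1 (292.4 CPM) and low in Atp6v0a2 (95.55 CPM). Heart 67 was the most deeply counted library (43792168 counts) and high in Mybpc3 (4077 CPM), Smyd1 (615.9 CPM), Atp6v0a1 (121.5 CPM) and Ckm (1893 CPM). Heart 65 was high in Cd74 (204.4 CPM) and H2-Ab1 (103.2 CPM), and heart 64 in Cdh16 (2.748 CPM).

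Kidney 48 carried the most heart transcripts, with 6.671 CPM of Myh6, and marker sums of 7.361 CPM for heart muscle, 10.06 CPM for ventricular and 1.775 CPM for atrial cardiomyocytes, against at most 1.18, 2.77 and 0.972 CPM in the other kidneys. It also had the most adipocyte markers (118 CPM) and Fabp1 (3.779 CPM), and the least Cpt1a (464.8 CPM), Hdac5 (44.89 CPM) and Sirt2 (54.39 CPM). Kidney 45 was alone in Igkv4-63 (68.26 CPM) and Ighv1-18 (65.93 CPM) and low in Gpx3 (13780 CPM) and Slc25a5 (629.7 CPM). Kidney 47 was high in Kap (10130 CPM) and low in Hadha (239.5 CPM), kidney 49 was high in Esrrg (92.06 CPM) and low in Slc4a4 (1166 CPM), Tfcp2l1 (310.5 CPM) and Pygm (5.674 CPM), and kidney 46 was high in Atp6v0a4 (329.9 CPM). What sets these libraries apart was not tested.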

How the results depend on the processing

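No paired analysis was possible because the labels give kidney and heart libraries different numbers and do not say which share a mouse. Over the alternative fits of all 11 libraries, 12694 genes (at least 10 counts in at least 5 libraries) to 15010 (plain library totals) were called, against 14117; DESeq2 called 14173, limma-voom 14427 and the fit without a filter 14468. Plain library totals moved the median by 0.45 and split the calls into 10499 and 4511 (69.9% and 30.1%), while upper-quartile scaling gave 6892 and 7173. Leaving out 1 library gave 13484 to 14144 calls, 7029 to 7561 of them higher in kidney and 6350 to 6667 higher in heart.

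A reported count or share was marked as moved only beyond a change of 1.5 times. A gene list was judged by the number of its calls in either direction. By that rule 5 alternatives moved a value. No mitochondrial gene is left to call when those genes are left out (0). Genes with an interval inside the margin numbered 649 for 0.25 and 6838 for 1 log2 unit, in place of 2886 for 0.5. Genes of one tissue only numbered 119 and 70 with no count allowed in the other. The rule misses a changed split between kidney and heart. On plain library totals class I deacetylase and corepressor genes split 17 to 4, against 11 to 11 with TMM. Energy regulators split 8 to 6, against 4 to 9. Direction was lost by genes with small differences. On plain library totals ENSMUSG00000098178 (0.10), Oxct1 (0.11), Acat1 (0.17), Prkaa2 (0.22), Atp6v0a2 (0.18), Chd4 (0.28), Acaca (0.16), Atp2a3 (0.32), Ldha (0.16) and Hdac2 (0.16) turned, with upper-quartile scaling Podxl (-0.03), Ncor1 (-0.05) and Phka2 (-0.04), and in treated mice Podxl (-0.17) and Chd4 (0.08). Over the fits without 1 library, Acaca ranged from -0.45 to 0.03 (positive without heart 62), Phka2 from -0.01 (without heart 64 or 66) to 0.12, Ighv1-18 from -0.81 (without kidney 45) to 11.69 (without heart 62) and Entpd4 from -0.14 (without kidney 47) to 0.64. Apart from the scalings and the left-out libraries, the cause was not tested. With no count added, 7 of the 27 isoform pairs gave no value, because a library had 0 counts of one gene. Depth limits statements on genes at 0 to the floors given.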
